A study of Mus musculus with 12 samples.

Results

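Tumours grown from Lewis lung carcinoma (LLC) cells in mice given cisplatin together with brivanib were compared with tumours of mice given vehicle. The comparison rests on 6 of the 12 libraries of the series, picked by their treatment label alone: 3 from the combination (numbered 2, 3 and 4) and 3 from vehicle (numbered 2, 3 and 5). The other 6 libraries, 3 from cisplatin alone and 3 from brivanib alone, served for the estimate of the spread and for the contrasts with each single drug. LLC is a transplantable lung carcinoma line of C57BL/6 mice, the strain that also served as host. Per the labels, hosts in all 4 groups were females of 6 to 8 weeks, with 6 animals in a group. They carried LLC cells in Matrigel, 3 M in each flank (M for mega), so that 10 to 12 tumours grew per group. Dosing began at a tumour volume of 100 mm3 or more. Each dose of 100 µL went into the peritoneal cavity, and 2 doses were given per week for 4 weeks. No source used here gives the drug amounts. With tumours on both flanks, some libraries of a group may come from the same mouse, and the labels do not say. The p-values then measure only the spread between these samples, which may be smaller than that between mice.

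Cisplatin is a platinum compound that binds DNA and links bases within and between strands. Such lesions stall replication forks, draw on crosslink repair and homologous recombination, and can activate p53. Brivanib blocks the kinase activity of VEGF and FGF receptors, which endothelial cells use to grow and to keep new vessels alive. Micronuclei and DNA fragments that reach the cytosol can engage the sensor cGAS, which signals through STING to type I interferon and the genes it induces; the title of the series names cGAS, chemosensitization and antitumour immunity.

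The combination and vehicle libraries held 17.161 to 22.809 M fragments, as recovered from the deposited FPKM values (fragments per kilobase of transcript, scaled to sequencing depth). Genes at an FPKM of 1 or more numbered 13972 to 14057 per library among these 6. Vim, a gene of mesenchymal and dedifferentiated carcinoma cells, was abundant, at 849.5, 945 and 844 FPKM in combination tumours 2, 3 and 4, against 902, 1018 and 975 FPKM in vehicle tumours 2, 3 and 5. Nkx2-1 and Sftpc, which define lung alveolar epithelium, and Krt18, a keratin of simple epithelia, were listed at 0 in all 12 libraries; these 4 genes were chosen after their values were seen. Of 19 tested adipocyte markers, 14 lay above every vehicle library in every combination library, against 17.2% of all genes tested, and the summed level of all 30 listed markers was 267.1 to 510.9 FPKM in the combination, against 156.1 to 165.7 FPKM in vehicle. Adipoq, which encodes the fat cell hormone adiponectin and was likewise chosen with its values in view, was at 4.08, 1.58 and 2.62 FPKM in combination tumours and at 0, 0 and 0.0806 FPKM in vehicle tumours. Skeletal muscle markers averaged 1.66 on the log2 scale in combination 2, 0.67 in combination 3 and 0.61 in combination 4, against 0.56 to 0.58 in the vehicle libraries. The adipocyte score, the mean log2(FPKM + 1) of the markers, was 2.12 to 2.30 in the combination, against 1.25 to 1.28 in vehicle. A fit with this score as a covariate therefore shares most of the group difference with it, and its counts are given beside the gene lists that had calls. In whole tumour RNA, fewer cells of a type and less RNA per cell cannot be told apart.

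Of 14246 genes with a mean FPKM of at least 1, 333 (2.34%) passed the test (limma on log2(FPKM + 1), adjusted p under 0.05) between combination and vehicle. In the combination, 259 genes (1.82%) were higher and 74 (0.519%) lower. Of these, 80 were at least 2-fold higher and 36 at least 2-fold lower. Over all genes the log2 fold change had a median of 0.04. Rescaling moved the split towards lower calls, with 201 higher and 110 lower under median-of-ratios scaling and 135 higher and 81 lower at equal library totals, where the medians of all genes were -0.003 and -0.03. All 333 called genes had combination libraries entirely on one side of the vehicle libraries; over all genes tested, 17.2% had every combination library above vehicle and 9.35% had every one below. The number of calls depended on single libraries: it was 46 without combination 2, 50 without combination 3, 41 without vehicle 2, 21 without vehicle 3 and 99 without vehicle 5, but 336 without combination 4. Across the main test and all 19 alternatives, 8 genes were called every time: Hbb-bs, Hba-a2, Hbb-bt, Hba-a1 and Acpp lower, and Ifi207, Acsbg1 and Chil3 higher. Acpp and Ifi207 stand outside the naming rule and were chosen after their values were seen. The gene lists were chosen with earlier results of these data known, so their counts beside the shares of all genes are descriptions.

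**Figure D1:**
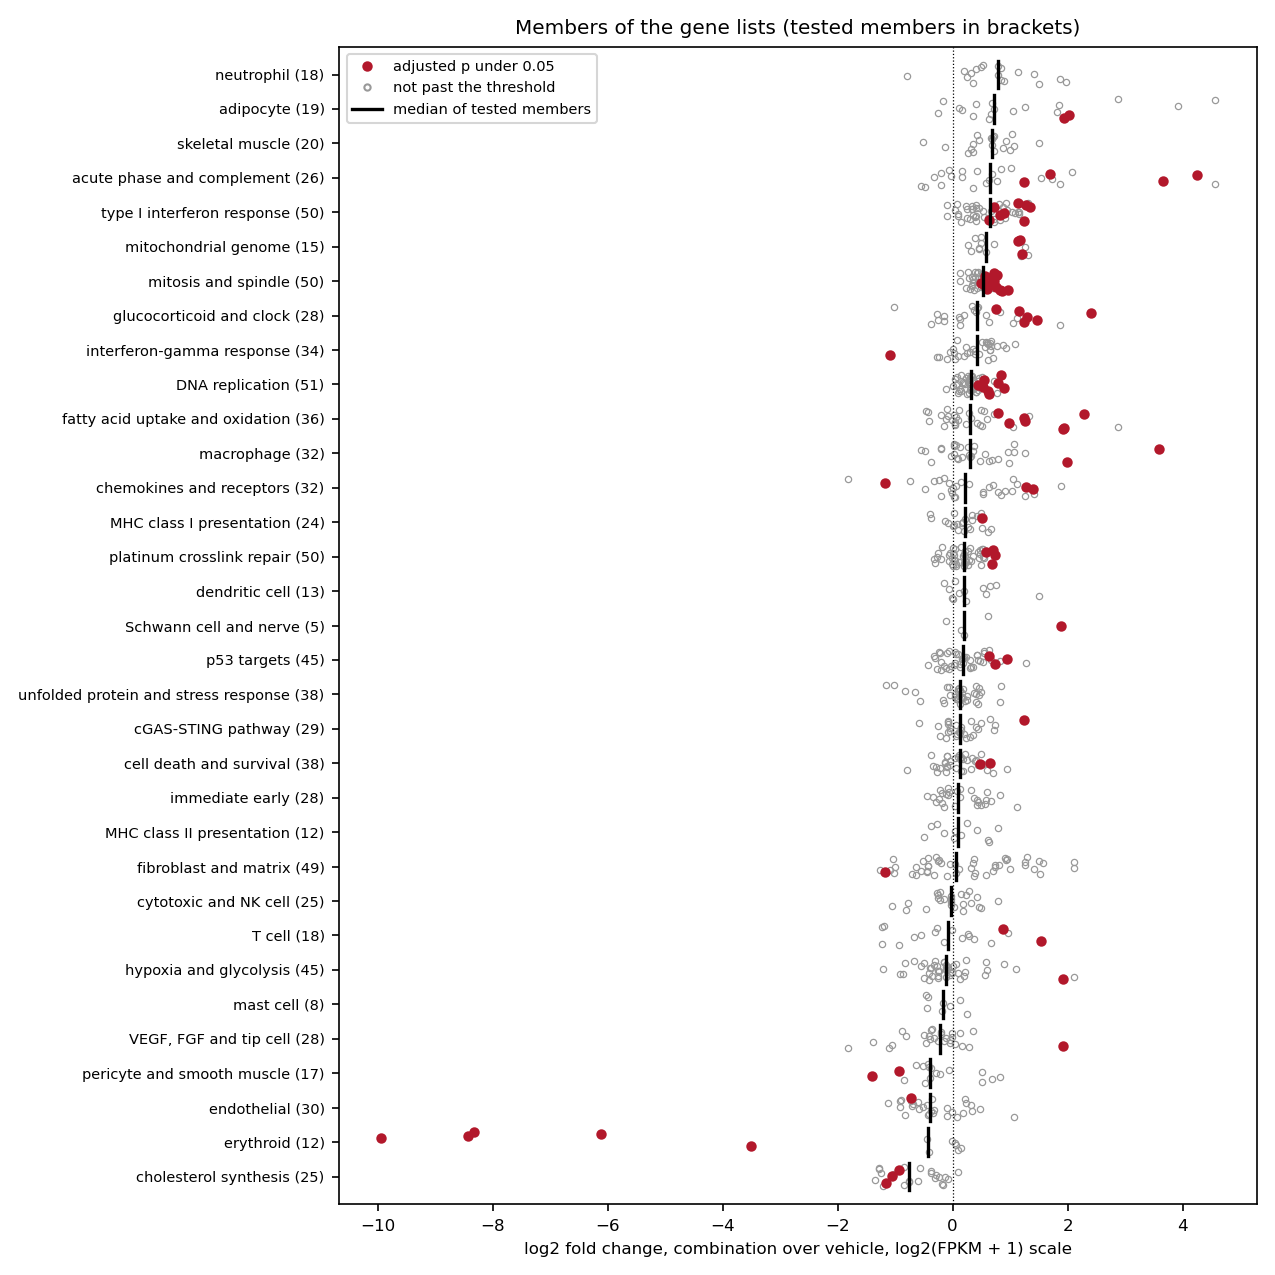
Log2 fold changes of combination over vehicle (x axis, log2(FPKM + 1) scale) for the tested members of each gene list with at least 5 tested members (y axis, ordered by median). Filled points passed an adjusted p of 0.05, open points did not, and black bars mark list medians; mitosis genes lie to the right of 0 as a tight group, red cell genes reach -9.95, and the cholesterol list has the lowest median at -0.76.

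Red cell transcripts showed the largest decreases in combination tumours. Globin genes encode the chains of haemoglobin, and Alas2 encodes the enzyme that starts haem synthesis in red cell precursors. Of 30 listed erythroid gene names, 27 were found in the data and 12 were abundant enough to test. Among these 12, 5 fell in the combination and none rose, with a list median of -0.43, against 0.519% of all genes called lower. The median was the same when the 2 genes at 0 were set to their bounds. The 5 were the 4 adult globin genes and Alas2. The beta globin promoters and that of Alas2 are shown because their genes fell together; each line gives the 100 bases before the RefSeq start on GRCm38.p6, read on the gene's strand. Capitals mark the CCAAT box on either strand, the CACCC motif (letters CCACACCC) and the GATA motif (letters AGATAA), which in Alas2 stands on the opposite strand.
Hbb-bs (chr7:103827929-103828028, minus strand): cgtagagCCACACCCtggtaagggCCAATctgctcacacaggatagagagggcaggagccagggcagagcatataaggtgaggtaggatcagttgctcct
Hbb-bt (chr7:103813924-103814023, minus strand): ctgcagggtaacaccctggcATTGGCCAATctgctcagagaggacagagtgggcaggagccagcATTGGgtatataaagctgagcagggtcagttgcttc
Alas2 (chrX:150547317-150547416, plus strand): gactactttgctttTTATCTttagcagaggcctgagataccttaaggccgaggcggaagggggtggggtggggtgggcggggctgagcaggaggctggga

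Over windows of 250 bases before to 50 after the start, read on both strands, the GATA motif was found in 2 of the 5 genes (Hbb-bs and Alas2) and in 11.18% of all 32851 promoters in the table. The CACCC motif was found in 1 of the 5 and in 3.56% of all promoters. Hbb-bs (chromosome 7, 103826534 to 103828096; gene positions here and below are those of GENCODE M21 on GRCm38) was listed at 0 in all 3 combination libraries, against 655, 1245 and 1173 FPKM in vehicle 2, 3 and 5. Taking 3 fragments in a library as the limit that a count of 0 allows, it was at least 3976-fold lower in fragments scaled to depth, and the test gave an adjusted p of 0.00311. Hbb-bt (chromosome 7, 103812524 to 103813996) was likewise listed at 0 in the combination, against 213, 398 and 391 FPKM in vehicle, at least 1451-fold lower (adjusted p = 0.00311). Both beta globin genes thus lay at the detection floor in every combination tumour. Hba-a2 (chromosome 11, 32296489 to 32297298) had 0.557, 2.11 and 0 FPKM in combination 2, 3 and 4, against 397, 625 and 809 FPKM in vehicle 2, 3 and 5, a log2 fold change of -8.44 ± 1.01 (SE; adjusted p = 0.00463). Hba-a1 (chromosome 11, 32283511 to 32284465) had 3.96, 13.7 and 4.32 FPKM in the combination, against 332, 568 and 695 FPKM in vehicle (-6.12 ± 0.72, adjusted p = 0.00463). The paired alpha genes, like the paired beta genes, are near-identical copies, so how fragments were split between them is uncertain. Alas2 (chromosome X, 150547375 to 150570638) had 0.180, 0.598 and 0.218 FPKM in the combination, against 10.2, 16.0 and 16.6 FPKM in vehicle (-3.50 ± 0.42, adjusted p = 0.00463). It overlaps Apex2 on the opposite strand, and no strand setting is named in the sources used here. The other 7 tested members, among them Tfrc, the transferrin receptor, Fech, the last enzyme of haem synthesis, and Slc25a37, a mitochondrial iron importer, did not pass; these 3 were at 0.09, 0.14 and -0.01, and they and Slc4a1 were chosen after their values were seen. Slc4a1, an anion exchanger of the red cell membrane, was below the level tested. It was listed at 0 in every combination library, against 0.0934, 0.198 and 0.0917 FPKM in vehicle. There were 5 erythroid calls, all lower, without any single library of these 6, and also when the adipocyte score was a covariate. From the highest transcript of each gene there were 4, and the call of Alas2 was lost (limma, adjusted p = 0.0640). In single-drug tumours, Hbb-bs was at 32.9, 6.46 and 0 FPKM in cisplatin 1, 2 and 3 and at 1209, 259 and 180.1 FPKM in brivanib 2, 3 and 5. It was lower in the combination than in brivanib (log2 fold change -8.59, adjusted p = 0.00250), and the difference from cisplatin did not pass (adjusted p = 0.696). Cisplatin tumours set against the same vehicle tumours had 5 of the 12 genes lower, and brivanib tumours none. Over all 14246 genes tested, 10 were lower in cisplatin and 15 in brivanib tumours than in vehicle.

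**Figure D2:**
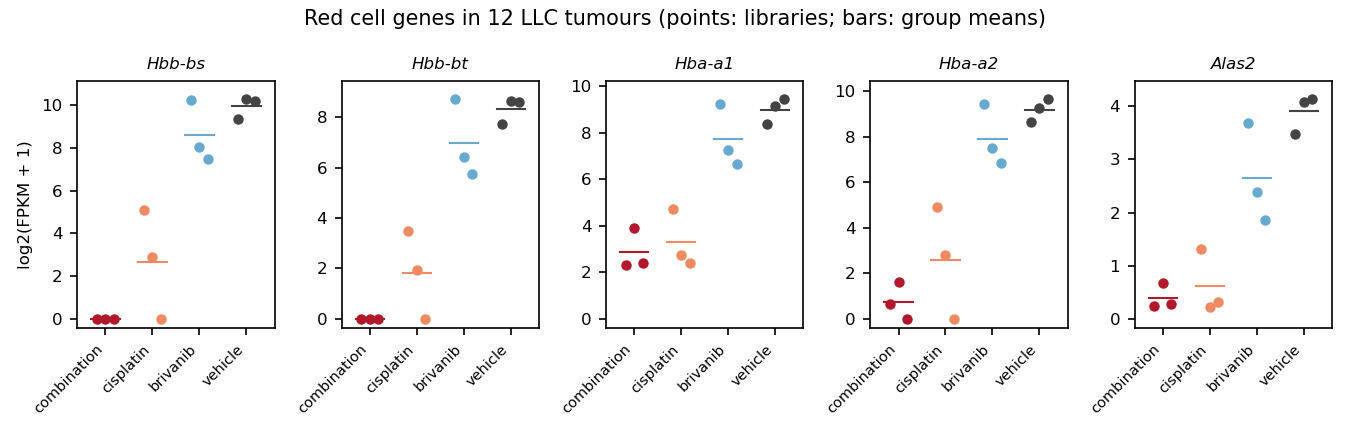
Levels of the 5 called red cell genes (y axis, log2(FPKM + 1)) in each library, by group (x axis); points are libraries and bars are group means. Hbb-bs and Hbb-bt are at 0 in all 3 combination libraries, while Hbb-bs is at 655, 1245 and 1173 FPKM in vehicle.

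Of the genes of mitosis, 17 of 50 rose in the combination. All 50 listed mitosis and spindle genes were tested and none fell, against backgrounds of 1.82% and 0.519%. Every one of the 50 had a positive fold change, between 0.13 and 0.96, with a median of 0.53, and in 46 of them all 3 combination libraries lay above all 3 vehicle libraries, against 17.2% of all genes. Many genes of late cell division carry a CHR element (TTTGAA) beside CCAAT boxes, through which DREAM and B-Myb/FoxM1 complexes act. The promoters of 3 called genes that hold both within 100 bases of the start are shown, with both elements, on either strand, in capitals.
Cdc20 (chr4:118437344-118437443, minus strand): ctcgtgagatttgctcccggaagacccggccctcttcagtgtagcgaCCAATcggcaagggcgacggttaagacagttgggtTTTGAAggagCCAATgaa
Prc1 (chr7:80294376-80294475, plus strand): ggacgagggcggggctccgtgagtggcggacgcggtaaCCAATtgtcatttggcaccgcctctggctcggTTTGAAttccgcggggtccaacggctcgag
Ube2c (chr2:164769829-164769928, plus strand): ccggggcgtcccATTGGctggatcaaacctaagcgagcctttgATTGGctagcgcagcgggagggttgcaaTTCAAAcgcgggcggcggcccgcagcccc

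Of the 17 called genes, 11 had a promoter in the table. The CHR letters were found in 7 of these 11 and in 29 of the 41 tested list members with a promoter (70.73%), beside 17.89% of all promoters and 14.53% of those of tested genes. CCAAT was found in 7 of the 11 and in 31 of the 41 tested list members (75.61%). It was found in 37.41% of all promoters and in 43.18% of tested genes with a promoter. Prc1 (chromosome 7, 80294450 to 80316259), which bundles the microtubules of the central spindle, had 44.1, 40.2 and 44.8 FPKM in combination 2, 3 and 4, against 21.95, 25.3 and 27.2 FPKM in vehicle 2, 3 and 5 (0.77 ± 0.12, adjusted p = 0.0115). Ube2c, the ubiquitin-conjugating enzyme of the anaphase-promoting complex, had 227, 184 and 185 FPKM in the combination, against 90.9, 112 and 128 FPKM in vehicle (0.85 ± 0.13, adjusted p = 0.0126). Neither gene's groups overlapped. Anln, a scaffold of the cleavage furrow, rose by 0.56 ± 0.10 and Tpx2, a spindle assembly factor, by 0.70 ± 0.13 (adjusted p = 0.0188 and 0.0218). Among further called members, chosen after their values were seen, Kif20a, a kinesin of cytokinesis, was at 0.96, Foxm1, a transcription factor of these genes, at 0.82, Aurka, the kinase that Tpx2 activates, at 0.72, and Cdc20, the activator of the anaphase-promoting complex, at 0.60. Mybl2, which encodes B-Myb and is on no list, rose by 0.89 ± 0.11 (adjusted p = 0.00662; chosen after its values were seen). Mki67, a general marker of cycling cells, had 42.4, 35.6 and 39.3 FPKM in the combination, against 28.2, 31.9 and 36.3 FPKM in vehicle, and did not pass (0.28 ± 0.16, adjusted p = 0.385). The 17 mitosis calls became 4 without combination 3, 8 without combination 4 or vehicle 5, and 0 without combination 2, vehicle 2 or vehicle 3. They also became 0 when the adipocyte score was a covariate, 0 in limma-voom on recovered fragments, 4 with no filter, 6 at equal totals and 2 from the highest transcript of each gene. That limma-voom fit made no correction for the many ribosomal-like fragments of library brivanib 5, a limit described with the processing. The list median stayed between 0.33 and 0.60 under all 19 alternatives.

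Of 51 tested DNA replication genes, 8 rose and none fell, against 1.82% of all genes higher and 0.519% lower, with a median of 0.32. Ccnd1, the cyclin D1 gene that drives passage out of G1, had 164, 158 and 123 FPKM in the combination, against 88.3, 78.4 and 79.5 FPKM in vehicle (0.84 ± 0.12, adjusted p = 0.0102), with no overlap. Mcm10 and Cdc45, which start replication forks, rose by 0.80 ± 0.13 and 0.63 ± 0.11 (adjusted p = 0.0166 and 0.0211), and Cdt1, which licenses origins, by 0.61 ± 0.11 (adjusted p = 0.0227). Rrm2, a subunit of the enzyme that makes deoxyribonucleotides, was at 130.2, 102 and 98.4 FPKM in the combination, against 56.2, 51.5 and 69.9 FPKM in vehicle (0.89 ± 0.17, adjusted p = 0.0235; chosen after its values were seen). The 8 calls became 1 without combination 2 or vehicle 2, 2 without combination 3, 4 without vehicle 5 and 0 without vehicle 3, and 1 when the adipocyte score was a covariate. In 26 of the 51, every combination library lay above every vehicle library, against 17.2% of all genes.

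**Figure D3:**
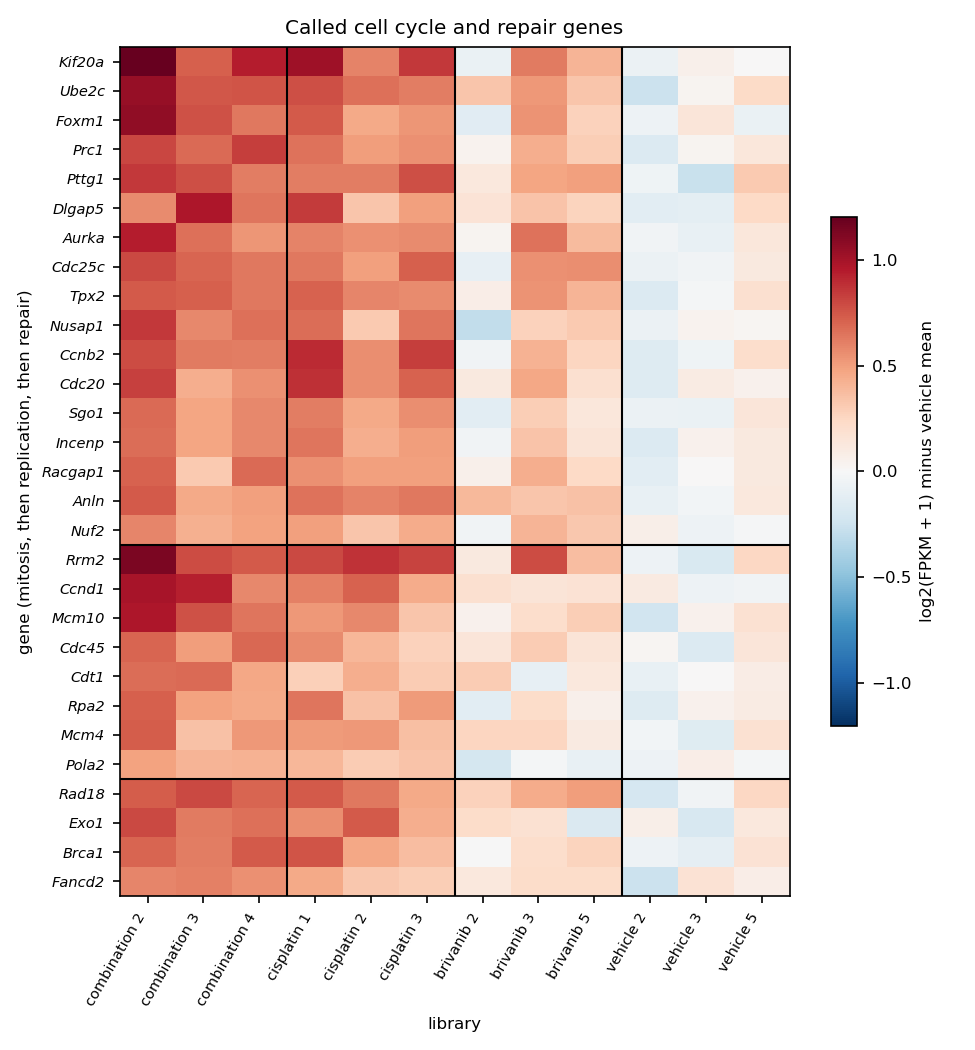
Called mitosis, replication and crosslink repair genes (rows) in each library (columns), as log2(FPKM + 1) minus the vehicle mean of that gene. Every combination and cisplatin cell is above the vehicle mean, with values up to 1.21; brivanib 2 lies nearest to vehicle, and no cell is below -0.30.

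Of 50 tested genes of platinum crosslink repair and its partner pathways, 4 rose and none fell, against 1.82% and 0.519% of all genes, with a median of 0.20. Rad18, a ubiquitin ligase that lets stalled forks bypass lesions, had 24.05, 25.2 and 23.5 FPKM in the combination, against 12.1, 13.6 and 16.9 FPKM in vehicle (0.74 ± 0.13, adjusted p = 0.0192). Brca1, which directs homologous recombination, had 17.1, 16.1 and 17.5 FPKM in the combination, against 9.65, 9.27 and 11.5 FPKM in vehicle (0.69 ± 0.13, adjusted p = 0.0227). Exo1, a nuclease that resects DNA ends, rose by 0.69 ± 0.14 (adjusted p = 0.0272) and Fancd2, the central protein of the Fanconi crosslink pathway, by 0.59 ± 0.13 (adjusted p = 0.0355). None of these 4 overlapped between groups. The 4 calls became 0 without combination 2, combination 3, vehicle 2 or vehicle 3, 3 without combination 4, 2 without vehicle 5, and 0 when the adipocyte score was a covariate.

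Of 45 tested p53 target genes, 3 rose and none fell, against 1.82% and 0.519% of all genes (median 0.17). The 3 were Wee1, which holds back entry into mitosis, and Ckap2 and Gtse1, both microtubule-associated proteins made around mitosis. Wee1 (chromosome 7, 110122046 to 110143286) had 26.5, 28.9 and 26.2 FPKM in combination 2, 3 and 4, against 14.2, 13.2 and 13.6 FPKM in vehicle 2, 3 and 5 (0.94 ± 0.15, adjusted p = 0.0165). It was also higher in the combination than in brivanib tumours, which were at 12.2, 12.1 and 14.3 FPKM (adjusted p = 0.00905). Cisplatin tumours were at 29.8, 20.7 and 34.4 FPKM for Wee1, higher than vehicle by 0.97 (adjusted p = 0.0385). The log2 fold change of combination over cisplatin was -0.03 (adjusted p = 0.988). Ckap2 rose by 0.64 ± 0.12 and Gtse1 by 0.73 ± 0.14 (adjusted p = 0.0234 and 0.0235). The standard p53 readouts did not pass. Cdkn1a, the p21 cell cycle inhibitor, was at 32.6, 43.1 and 38.3 FPKM in the combination, against 10.3, 18.7 and 17.1 FPKM in vehicle (1.28 ± 0.34, adjusted p = 0.0695), with no overlap. Mdm2, the ubiquitin ligase of p53, was at 29.5, 34.1 and 27.7 FPKM in the combination, against 22.2, 25.1 and 23.6 FPKM in vehicle (0.35 ± 0.17, adjusted p = 0.289). Zmat3, another p53 target, was at 0.47 ± 0.12 (adjusted p = 0.0580). The 3 calls became 5 without combination 4, 2 without vehicle 5, 0 without any one of the other 4 libraries, and 0 when the adipocyte score was a covariate.

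Cgas, the sensor named in the title, was too low to test, at 0.227, 0.172 and 0.521 FPKM in the combination and 0.336, 0.300 and 0.154 FPKM in vehicle, with overlapping groups. Tmem173, which encodes STING, was at 19.8, 23.7 and 23.1 FPKM in the combination and 19.9, 18.7 and 22.6 FPKM in vehicle (0.12 ± 0.11, adjusted p = 0.625). Ifnb1, the interferon beta gene, was at 0, 0 and 0.148 FPKM in combination 2, 3 and 4 and at 0, 0 and 0 FPKM in vehicle. Of 29 tested cGAS-STING pathway genes, 1 rose and none fell, against 1.82% and 0.519% of all genes (median 0.12). It was Ifi204, a DNA sensor of the PYHIN family that is itself induced by interferon. The Ifi204 call was lost without any one library other than combination 4, and when the adipocyte score was a covariate. Samhd1, an enzyme that degrades deoxyribonucleotides, was at 0.44 ± 0.12 (adjusted p = 0.0748).

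Of 50 tested type I interferon response genes, 8 rose in the combination and none fell, against backgrounds of 1.82% and 0.519%. The list median was 0.65, 48 members had a positive fold change and in 32 every combination library lay above every vehicle library, against 17.2% of all genes. These genes are switched on through the interferon-stimulated response element (ISRE), to which an interferon-activated complex that contains IRF9 binds. The promoters of the 3 called genes in which ISRE letters (GAAA, any 2 bases, GAAA) were found are shown with those letters in capitals; in Trim30a they stand on the opposite strand, and in Oas1a a pair of matches overlap each other.
Oas1a (chr5:120907526-120907625, minus strand): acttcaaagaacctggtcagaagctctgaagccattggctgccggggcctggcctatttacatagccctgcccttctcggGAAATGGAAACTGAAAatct
Ifi211 (chr1:173913047-173913146, minus strand): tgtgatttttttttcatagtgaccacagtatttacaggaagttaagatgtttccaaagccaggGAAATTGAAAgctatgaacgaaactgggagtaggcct
Trim30a (chr7:104465194-104465293, minus strand): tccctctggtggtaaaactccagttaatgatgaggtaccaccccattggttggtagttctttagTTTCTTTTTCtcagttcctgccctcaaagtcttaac

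The letters were found in 3 of the 6 called members with a promoter in the table and in 20 of 39 tested members with one (51.28%), beside 3.44% of all promoters and 3.85% of those of tested genes. Oas1a (chromosome 5, 120896256 to 120907521), whose product makes the messenger that activates RNase L, had 14.5, 11.6 and 9.16 FPKM in the combination, against 4.78, 3.54 and 4.25 FPKM in vehicle (1.28 ± 0.22, adjusted p = 0.0207). Xaf1, a partner of the apoptosis inhibitor XIAP, had 16.4, 14.8 and 10.99 FPKM in the combination, against 5.95, 3.92 and 4.90 FPKM in vehicle (1.34 ± 0.25, adjusted p = 0.0235). Ifi204 (chromosome 1, 173747293 to 173766943) had 51.0, 58.7 and 27.5 FPKM in the combination, against 21.0, 17.6 and 15.5 FPKM in vehicle (1.24 ± 0.25, adjusted p = 0.0280). In all 3 genes the groups did not overlap, and combination 4 was the lowest of the combination libraries. Ifit2, an interferon-induced RNA-binding protein, rose by 0.71 ± 0.14 (adjusted p = 0.0253). The other called members, chosen after their values were seen, were Ifi27l2a at 1.15, Trim30a at 0.90, Irf9, the DNA-binding part of the interferon complex, at 0.64, and Ifi211 at 0.82. Ifi207 and Slfn2 are outside the list and were chosen after their values were seen. Ifi207, a PYHIN gene, had 55.6, 78.0 and 44.6 FPKM in the combination, against 19.1, 18.6 and 13.5 FPKM in vehicle (1.72 ± 0.22, adjusted p = 0.00650), and brivanib tumours were at 11.3, 7.28 and 11.1 FPKM. Slfn2, a Schlafen gene of immune cells, rose by 1.37 ± 0.19 (adjusted p = 0.0102). PYHIN genes on chromosome 1 are similar copies, and fragments may have been shared between them. The 8 interferon calls became 13 without combination 4 and 0 without any one of the other 5 libraries. They also became 0 when the adipocyte score was a covariate, 0 in limma-voom, 0 with no filter on low values, 3 from the highest transcript of each gene and 5 at equal totals. Under the 19 alternatives the list median stayed between 0.40 and 0.72.

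Of 34 tested interferon-gamma response genes, none rose and 1 fell, against 1.82% and 0.519% of all genes (median 0.43). It was Vcam1, an adhesion molecule that activated endothelium also makes, at 10.0, 5.81 and 13.5 FPKM in the combination, against 22.1, 22.7 and 17.9 FPKM in vehicle (-1.08 ± 0.23, adjusted p = 0.0343). Ifi47, an interferon-induced GTPase, was at 1.09 ± 0.29 (adjusted p = 0.0745). Cxcl10, a chemokine that draws T cells, was at 8.75, 9.77 and 6.42 FPKM in the combination and 10.6, 7.27 and 6.51 FPKM in vehicle (0.04 ± 0.28, adjusted p = 0.955). Cd274, which encodes PD-L1, was at 6.14, 7.40 and 4.98 FPKM in the combination, against 2.86, 4.30 and 3.005 FPKM in vehicle (0.71 ± 0.26, adjusted p = 0.164), with no overlap. Of 24 tested genes of class I antigen presentation, 1 rose and none fell, against 1.82% and 0.519% of all genes. It was H2-T22, a nonclassical class I gene, at 46.0, 44.0 and 42.5 FPKM in the combination, against 34.5, 31.4 and 27.0 FPKM in vehicle (0.50 ± 0.11, adjusted p = 0.0429). H2-D1, a classical class I gene, was at 0.50 ± 0.12 (adjusted p = 0.0533) and Tap1, the peptide transporter, at 0.62 ± 0.18 (adjusted p = 0.0928). Class I genes are similar copies, and their split is uncertain. The Vcam1 call was lost without any one library other than combination 4, and the H2-T22 call without any one of the 6; both were lost when the adipocyte score was a covariate. None of 12 class II genes passed in either direction; Ctss, a protease that trims the class II chain, was at 0.79 ± 0.36 (adjusted p = 0.261).

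Glucocorticoid hormones induce a set of genes, several of which also set the circadian clock. Of 28 tested, 6 rose in the combination and none fell, against 1.82% and 0.519% of all genes (median 0.43). Tsc22d3, which encodes the glucocorticoid-induced leucine zipper protein (chromosome X, 140539528 to 140600659), had 64.8, 216 and 84.7 FPKM in combination 2, 3 and 4, against 18.4, 24.1 and 15.6 FPKM in vehicle 2, 3 and 5 (2.41 ± 0.46, adjusted p = 0.0235). Combination 3 was the highest library, and the groups did not overlap. Fkbp5, a co-chaperone of the glucocorticoid receptor, had 89.7, 139.6 and 87.6 FPKM in the combination, against 42.4, 43.1 and 39.7 FPKM in vehicle (1.29 ± 0.23, adjusted p = 0.0218). Sgk1, a kinase that hormones of the adrenal cortex induce, had 88.8, 144 and 89.3 FPKM in the combination, against 37.0, 45.001 and 49.5 FPKM in vehicle (1.24 ± 0.22, adjusted p = 0.0215). Per1, a repressor in the circadian clock, had 28.3, 35.1 and 31.4 FPKM in the combination, against 8.48, 16.2 and 8.92 FPKM in vehicle (1.47 ± 0.28, adjusted p = 0.0234). Per2, the companion clock repressor, and Klf9, a transcription factor, rose by 0.76 and 1.15; they were chosen after their values were seen. For Fkbp5, cisplatin tumours were at 93.8, 56.4 and 113 FPKM and brivanib tumours at 35.3, 44.1 and 38.3 FPKM. Against brivanib, 7 of the 28 genes were higher in the combination, beside 288 of all 14246 genes. The 6 calls became 1 without combination 2, vehicle 3 or vehicle 5, 0 without combination 3 or vehicle 2 and 6 without combination 4, and 0 when the adipocyte score was a covariate. No source used here gives the hours of dosing or of tumour collection.

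The largest increases by the naming rule, Hp and Serpina3n, were in acute phase genes. Of 26 tested acute phase and complement genes, 4 rose and none fell, against 1.82% and 0.519% of all genes (median 0.65). Hp encodes haptoglobin, which captures free haemoglobin (chromosome 8, 109575128 to 109579172). It had 41.0, 21.0 and 37.7 FPKM in combination 2, 3 and 4, against 0.347, 1.17 and 0.736 FPKM in vehicle 2, 3 and 5 (4.26 ± 0.83, adjusted p = 0.0241). Serpina3n, a serine protease inhibitor (chromosome 12, 104406729 to 104414329), had 18.5, 11.2 and 12.2 FPKM in the combination, against 0, 0 and 0.555 FPKM in vehicle (3.66 ± 0.56, adjusted p = 0.0118). Both were also high in brivanib tumours, with Serpina3n at 33.2, 15.2 and 20.2 FPKM, and varied among cisplatin tumours, with Serpina3n at 9.52, 0.706 and 0.991 FPKM. Cp, the copper carrier ceruloplasmin, followed another order: it had 34.6, 53.5 and 54.2 FPKM in the combination, 38.2, 25.6 and 52.5 FPKM in cisplatin, 13.4, 14.7 and 19.9 FPKM in brivanib and 16.8, 22.4 and 18.2 FPKM in vehicle (1.25 ± 0.25 against vehicle, adjusted p = 0.0280). Lrg1, a secreted glycoprotein of the acute phase, rose by 1.69 ± 0.39 (adjusted p = 0.0465). The 4 calls became 2 without combination 4, 1 without combination 2, combination 3 or vehicle 5, and 0 without vehicle 2 or vehicle 3; when the adipocyte score was a covariate there were 0. The adipocyte score given above was likewise higher in the combination than in vehicle. In brivanib tumours 2, 3 and 5 this score was 1.58, 3.29 and 1.66. Hp was also highest in brivanib 3. Serpina3n, at 15.2 FPKM, was lowest there among brivanib tumours, and Cp, at 14.7 FPKM, was below every vehicle library. The part of fat cells in the result was not tested further.

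**Figure D4:**
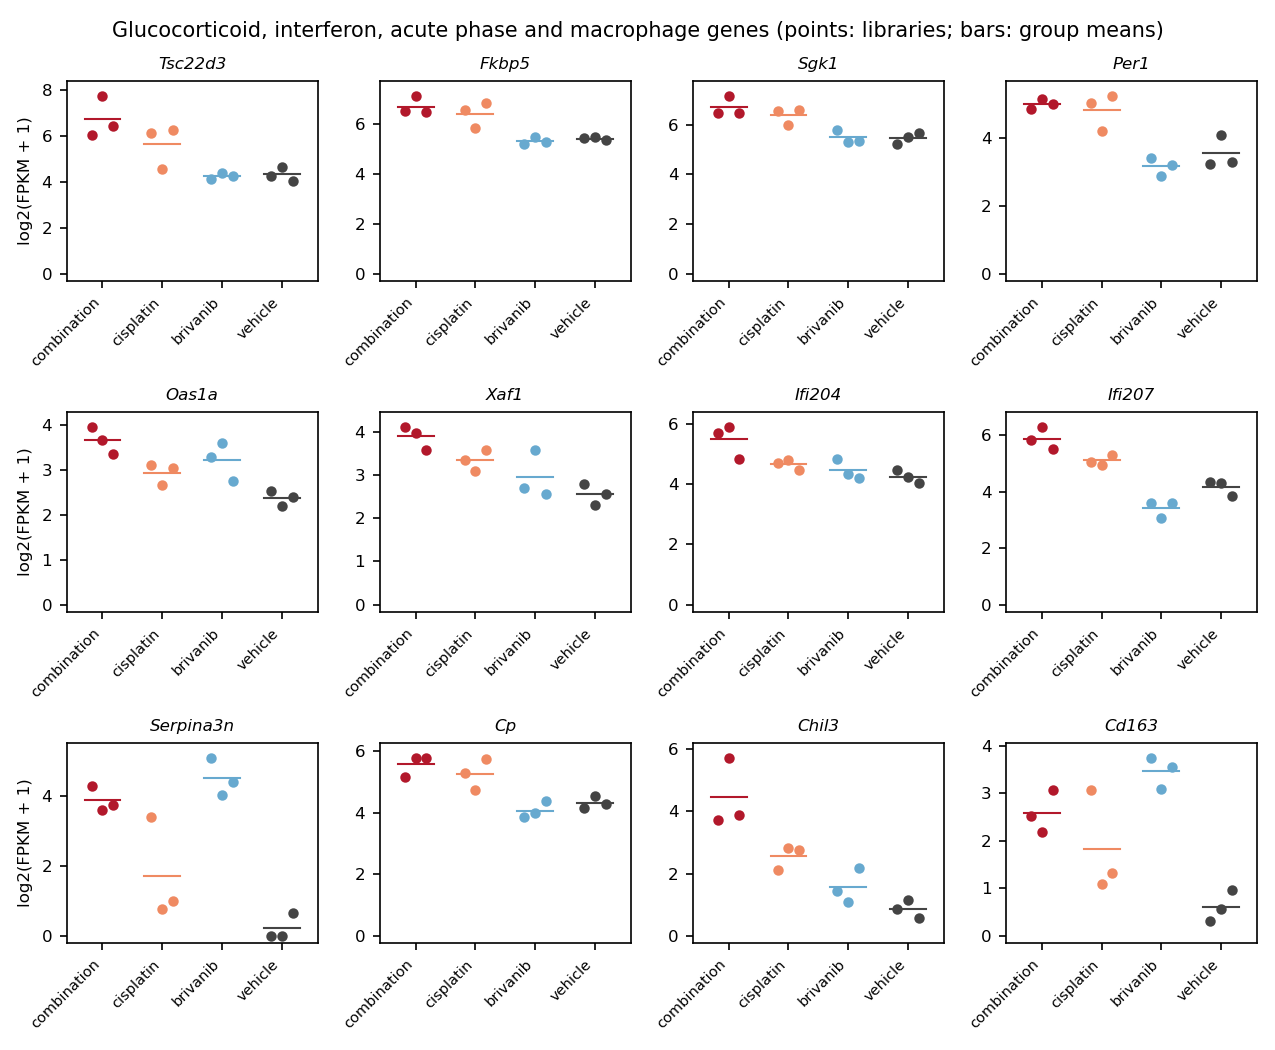
Levels of 12 genes called higher in the combination (y axes, log2(FPKM + 1)) in each library, by group (x axes); points are libraries and bars are group means. Tsc22d3, Fkbp5, Sgk1, Per1 and Cp have their highest group means in combination and then cisplatin tumours, whereas Serpina3n and Cd163 have their highest group means in brivanib tumours.

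Of 32 tested macrophage genes, 2 rose and none fell, against 1.82% and 0.519% of all genes (median 0.30). Chil3, a chitinase-like protein of alternatively activated macrophages and neutrophils (chromosome 3, 106147554 to 106167564), had 12.3, 52.2 and 13.8 FPKM in the combination, against 0.829, 1.21 and 0.483 FPKM in vehicle (3.59 ± 0.46, adjusted p = 0.00674); it was higher than in brivanib tumours as well, which were at 1.72, 1.11 and 3.501 FPKM (adjusted p = 0.0110). Cd163, the macrophage receptor for haptoglobin bound to haemoglobin, had 4.73, 3.59 and 7.37 FPKM in the combination, against 0.230, 0.467 and 0.960 FPKM in vehicle (1.99 ± 0.44, adjusted p = 0.0397). Neither gene's groups overlapped. The 2 macrophage calls became 1 without any one of the 6 libraries, 1 when the adipocyte score was a covariate, and 4 in a fit of the 6 libraries alone. None of 18 tested neutrophil genes passed in either direction (median 0.79), and combination 3 was the highest library for the following pair of genes: Retnlg was at 2.04, 28.9 and 2.56 FPKM in combination 2, 3 and 4, against 0, 0.889 and 1.80 FPKM in vehicle, and Mmp8 at 1.66, 15.8 and 2.06 FPKM in the combination, against 0.595, 0.929 and 0.966 FPKM in vehicle. Of 32 tested chemokines and receptors, 2 rose and 1 fell, against 1.82% and 0.519% of all genes. Ccl6 and Ccl9, attractants of myeloid cells, rose by 1.40 ± 0.28 and 1.27 ± 0.27 (adjusted p = 0.0289 and 0.0357). Ccl12, an attractant of monocytes, fell, with 15.3, 6.40 and 11.9 FPKM in the combination, against 27.5, 28.1 and 21.0 FPKM in vehicle (-1.18 ± 0.27, adjusted p = 0.0428). The 3 chemokine calls were lost without any one of the 6 libraries, and when the adipocyte score was a covariate. Cxcr4, a chemokine receptor, was at 2.01, 1.11 and 3.29 FPKM in the combination, against 6.52, 11.3 and 12.0 FPKM in vehicle (-1.82 ± 0.46, adjusted p = 0.0628).

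Of 36 listed T cell genes, 18 were high enough to test; 2 rose and none fell, against 1.82% and 0.519% of all genes (median -0.07). Havcr2, the inhibitory receptor TIM-3, which myeloid cells also carry, had 20.9, 36.6 and 19.0 FPKM in the combination, against 7.24, 7.73 and 8.29 FPKM in vehicle (1.54 ± 0.28, adjusted p = 0.0227). Tigit, another inhibitory receptor, had 18.4, 22.7 and 16.2 FPKM in the combination, against 9.57, 10.2 and 9.90 FPKM in vehicle (0.87 ± 0.18, adjusted p = 0.0311). The T cell calls became 0 without any one library other than combination 4, and 1 when the adipocyte score was a covariate. Of the genes that define T cells, Cd8a and Cd3e fell short of the level tested, which is a mean over 12 libraries. Among these 6 tumours both were highest in vehicle 2 and 3. With no filter on low values, none of the 36 listed genes was called higher and 1 was called lower, with a median of -0.29. Cd8a was listed at 0, 0 and 0.213 FPKM in combination 2, 3 and 4 and at 4.52, 2.31 and 0.233 FPKM in vehicle 2, 3 and 5, and was below the level tested. Cd3e, part of the T cell receptor complex and also below that level, was at 0, 0 and 0.152 FPKM in the combination and 4.33, 2.28 and 0.486 FPKM in vehicle. Trac, the constant part of the receptor, was at -1.19 ± 0.39 (adjusted p = 0.128); Cd3e and Trac were chosen after their values were seen. Of 25 tested cytotoxic and NK cell genes none passed in either direction. Gzmb, granzyme B, was at 87.7, 83.8 and 98.8 FPKM in the combination, against 143, 107 and 127 FPKM in vehicle (-0.47 ± 0.37, adjusted p = 0.542), and Nkg7, a granule protein, at -0.81 ± 0.19 (adjusted p = 0.0527). None of 4 B cell, 13 dendritic cell or 8 mast cell genes passed; the largest of the dendritic cell list by statistic was Clec10a, a lectin of macrophages and dendritic cells, at 1.502 ± 0.38 (adjusted p = 0.0599).

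Of 30 tested endothelial genes, 1 fell in the combination and none rose, against 0.519% and 1.82% of all genes (median -0.39). In 15 of the 30 every combination library lay below every vehicle library, against 9.35% of all genes. The called gene was Ecscr, a surface protein of endothelial cells (chromosome 18, 35713086 to 35722356), with 3.53, 2.92 and 3.21 FPKM in the combination, against 5.11, 6.48 and 6.34 FPKM in vehicle (-0.72 ± 0.12, adjusted p = 0.0188). Cdh5, the cadherin of endothelial junctions, was at 9.37, 9.50 and 8.41 FPKM in the combination, against 14.6, 20.9 and 19.2 FPKM in vehicle (-0.92 ± 0.25, adjusted p = 0.0780), and Tek, the angiopoietin receptor, at -0.84 ± 0.21 (adjusted p = 0.0633). The receptors that brivanib inhibits did not pass: Kdr, VEGF receptor 2, was at 3.53, 3.22 and 1.99 FPKM in the combination, against 3.74, 3.79 and 4.23 FPKM in vehicle (-0.35 ± 0.21, adjusted p = 0.416), Flt1, VEGF receptor 1, at -0.09 ± 0.25 (adjusted p = 0.874) and Fgfr1, FGF receptor 1, at -0.20 ± 0.15 (adjusted p = 0.534). Vegfa, the main ligand, was at 19.0, 18.8 and 15.01 FPKM in the combination and 20.49, 18.4 and 24.4 FPKM in vehicle (-0.25 ± 0.34, adjusted p = 0.739). Of 28 tested VEGF, FGF and tip cell genes, Angptl4 rose and none fell, against 1.82% and 0.519% of all genes. In a fit of the 6 combination and vehicle libraries alone, 1 of the 28 was higher and 4 were lower, and none passed when the adipocyte score was a covariate. Nid2, a basement membrane protein of tip cells, was at -1.38 ± 0.34 (adjusted p = 0.0569).

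Of 17 tested pericyte and smooth muscle genes, 2 fell and none rose, against 0.519% and 1.82% of all genes (median -0.39). Rgs5, a signalling regulator that marks pericytes (chromosome 1, 169655501 to 169695813), had 7.48, 3.92 and 5.85 FPKM in combination 2, 3 and 4, against 16.3, 18.8 and 14.4 FPKM in vehicle 2, 3 and 5 (-1.40 ± 0.21, adjusted p = 0.0102). Mcam, an adhesion molecule of pericytes and endothelium, had 11.4, 8.15 and 9.24 FPKM in the combination, against 15.1, 21.8 and 20.9 FPKM in vehicle (-0.93 ± 0.20, adjusted p = 0.0390). Brivanib tumours were at 16.0, 22.4 and 14.1 FPKM for Rgs5, and cisplatin tumours at 7.58, 8.63 and 7.01 FPKM. The difference of combination from cisplatin did not pass for Rgs5 (-0.40, adjusted p = 0.758). The pericyte list median was -0.36 for cisplatin over vehicle and -0.03 for combination over cisplatin. The combination was lower than brivanib in 8 of the 17 genes, beside 263 of all 14246 genes. Among called genes on no list that endothelial cells are known to make, chosen after their values were seen, Vash1, an angiogenesis inhibitor, was at -1.38 ± 0.25 and Cd93, an endothelial and myeloid receptor, at -1.01 ± 0.21 (log2 fold changes; adjusted p = 0.0227 and 0.0349). Of 49 tested fibroblast and matrix genes, 1 fell and none rose, against 0.519% and 1.82% of all genes (median 0.06). It was Dcn, the proteoglycan decorin (chromosome 10, 97479609 to 97518143), at 64.6, 43.2 and 74.9 FPKM in the combination, against 138, 128 and 139 FPKM in vehicle (-1.17 ± 0.19, adjusted p = 0.0147). Fn1, fibronectin, was at -0.63 ± 0.17 and Cd34, a marker of fibroblasts and endothelium, at -1.03 ± 0.25 (adjusted p = 0.0780 and 0.0559), whereas Mfap5, a microfibril protein, was at 2.11 ± 0.56 (adjusted p = 0.0725). The endothelial call was lost without combination 2, combination 3, vehicle 3 or vehicle 5, and in the fit with the adipocyte score. The 2 pericyte calls became 1 without any one of the 6 libraries other than vehicle 3, 0 without vehicle 3, and 1 when the adipocyte score was a covariate. The Dcn call was lost without vehicle 2 or vehicle 3 and in the fit with the adipocyte score. The calls of Vash1 and Cd93 were lost without any one library other than combination 4.

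**Figure D5:**
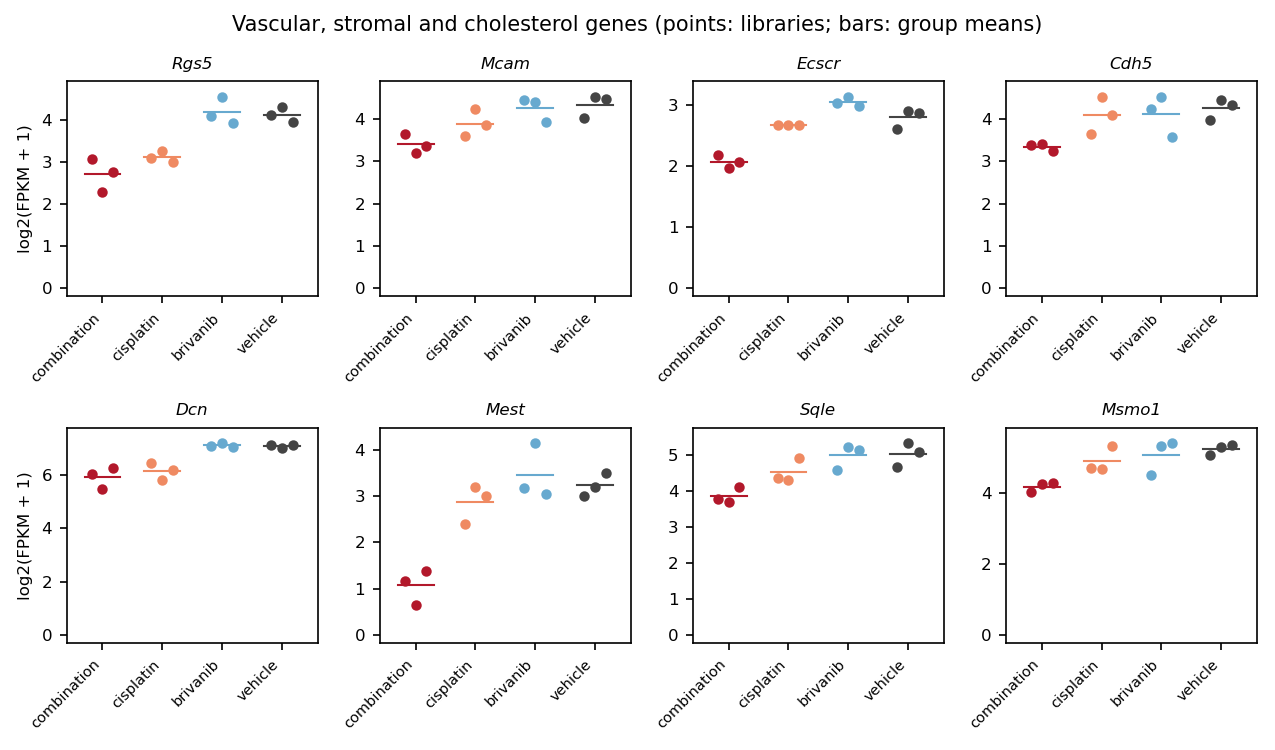
Levels of 8 vascular, stromal and cholesterol genes (y axes, log2(FPKM + 1)) in each library, by group (x axes); points are libraries and bars are group means. All but Cdh5 passed the test between combination and vehicle, and Mest shows the widest gap, with 1.26, 0.577 and 1.61 FPKM in the combination, against 6.997, 8.19 and 10.4 FPKM in vehicle.

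A list of fatty acid uptake and oxidation genes and one of cholesterol synthesis genes were both drawn up after values were seen, so their counts are descriptions. The same holds for the other lists, which were chosen with earlier results of these data known. Of 36 tested fatty acid genes, 7 rose and none fell, against 1.82% and 0.519% of all genes (median 0.30). Angptl4, a secreted inhibitor of lipoprotein lipase that fatty acids induce (chromosome 17, 33773750 to 33781575), had 34.9, 58.0 and 28.1 FPKM in the combination, against 9.58, 11.6 and 7.51 FPKM in vehicle (1.92 ± 0.41, adjusted p = 0.0343). Cd36, a fatty acid receptor of fat cells, macrophages and capillaries (chromosome 5, 17781690 to 17888801), had 20.9, 47.8 and 11.8 FPKM in the combination, against 5.61, 5.21 and 5.01 FPKM in vehicle (1.93 ± 0.35, adjusted p = 0.0218). Acsbg1, an enzyme that activates long fatty acids (chromosome 9, 54604877 to 54661870), had 14.4, 17.8 and 12.7 FPKM in the combination, against 1.65, 2.56 and 2.68 FPKM in vehicle (2.28 ± 0.24, adjusted p = 0.00311). Cpt1a, which commits fatty acids to mitochondria, had 62.7, 97.8 and 68.0 FPKM in the combination, against 32.5, 34.9 and 25.2 FPKM in vehicle (1.26 ± 0.22, adjusted p = 0.0207; chosen after its values were seen). In each of these 4 genes combination 3 was highest and the groups did not overlap. Of the adipocyte list itself, 2 of 19 rose, against 1.82% of all genes: Cd36 and Retn, the fat cell hormone resistin. In a fit of the 6 libraries alone 7 rose, and at most 1 did without any one of the 6. Retn (chromosome 8, 3655770 to 3660110) had 4.31, 3.05 and 2.17 FPKM in the combination and was listed at 0 in vehicle, at least 17.5-fold higher in fragments scaled to depth (adjusted p = 0.0397). Fabp4, a fatty acid binding protein of fat cells and macrophages, was at 55.4, 273 and 37.6 FPKM in the combination, against 10.6, 10.8 and 10.2 FPKM in vehicle (2.87 ± 0.79, adjusted p = 0.0779). The 7 fatty acid calls became 1 when the adipocyte score was a covariate, 3 without combination 2 or combination 3, 1 without any one vehicle library, and 8 without combination 4.

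Of 25 tested genes of cholesterol synthesis and its control, 3 fell and none rose, against 0.519% and 1.82% of all genes, and 24 had a negative fold change (median -0.76); in 14 every combination library lay below every vehicle library, against 9.35% of all genes. Sqle, squalene epoxidase, had 12.8, 11.9 and 16.1 FPKM in the combination, against 24.2, 38.8 and 32.7 FPKM in vehicle (-1.16 ± 0.22, adjusted p = 0.0235). Msmo1, an enzyme of the later steps, had 15.2, 17.9 and 18.3 FPKM in the combination, against 32.2, 38.3 and 39.8 FPKM in vehicle (-1.06 ± 0.23, adjusted p = 0.0369). Insig1, the sterol-sensing brake on this pathway, fell to a log2 fold change of -0.93 ± 0.19 (adjusted p = 0.0291). Idi1, Fdps and Cyp51, enzymes of the pathway, missed the threshold, at -1.29, -1.28 and -1.21 (adjusted p = 0.0987, 0.0903 and 0.0808). The list median ranged from -1.01 to -0.57 under the 19 alternatives, and the 3 calls became 0 without combination 2, combination 3, vehicle 3 or vehicle 5, 1 without vehicle 2, and 0 when the adipocyte score was a covariate. They became 6 in a fit of the 6 libraries alone and 8 when the skeletal muscle score was a covariate.

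All 15 tested genes of the mitochondrial genome had positive fold changes, with a median of 0.58. In 14 of them every combination library lay above every vehicle library, against 17.2% of all genes. Past the threshold, 3 rose and none fell, against 1.82% and 0.519% of all genes. The 3 encode subunits of complex I: mt-Nd5 had 1206, 1292 and 1121 FPKM in the combination, against 698, 507 and 464 FPKM in vehicle (1.14 ± 0.19, adjusted p = 0.0177), and mt-Nd1 and mt-Nd6 rose by 1.21 ± 0.22 and 1.17 ± 0.22 (adjusted p = 0.0218 and 0.0235). mt-Co1, a subunit of cytochrome oxidase chosen after its values were seen, was at 0.33 ± 0.20 (adjusted p = 0.416). mt-Nd5 and mt-Nd6 lie on opposite strands with overlapping ends, so shared fragments are possible. The 3 calls became 1 without vehicle 2 and 0 without combination 2, combination 3, vehicle 3 or vehicle 5, and 0 when the adipocyte score was a covariate.

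Of 38 tested genes of the unfolded protein response and 28 immediate early genes, none passed in either direction; Ppp1r15a, a phosphatase subunit of the stress response, was at 0.84 ± 0.33 and Dusp1, a phosphatase that glucocorticoids and stress induce, at 1.11 ± 0.32 (adjusted p = 0.191 and 0.0884). Of 45 tested hypoxia and glycolysis genes, Angptl4 alone rose and none fell, against 1.82% and 0.519% of all genes (median -0.12). Hif1a was at 0.09 ± 0.11 (adjusted p = 0.687). Of 38 tested cell death genes 2 rose and none fell, against 1.82% and 0.519% of all genes. Casp8, the initiator caspase of death receptors, was at 31.2, 32.3 and 29.8 FPKM in the combination, against 22.1, 22.5 and 21.6 FPKM in vehicle (0.48 ± 0.09, adjusted p = 0.0227). Bok, a BCL2 family member, rose by 0.66 ± 0.12 (adjusted p = 0.0235). Both calls were lost without any one library other than combination 4, and when the adipocyte score was a covariate. Bcl2l1, which encodes the survival protein BCL-XL, was at 78.0, 63.8 and 61.0 FPKM in the combination, against 28.8, 41.1 and 34.5 FPKM in vehicle (0.94 ± 0.23, adjusted p = 0.0527). Of 20 tested skeletal muscle, 2 keratinocyte and 5 Schwann cell genes, Cryab passed, against 1.82% of all genes called higher. Cryab, a small heat shock protein that many tissues make, was at 9.03, 17.8 and 8.18 FPKM in the combination, against 1.70, 2.66 and 2.47 FPKM in vehicle (1.89 ± 0.28, adjusted p = 0.0102). The Cryab call was lost without vehicle 2 or vehicle 3, and when the adipocyte score was a covariate. The Angptl4 call was lost without any one library other than combination 4.

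Among the largest changes outside these lists, Krt20, a keratin of gut and urinary epithelium (chromosome 11, 99428403 to 99438150), had 5.12, 34.5 and 5.10 FPKM in the combination, against 0.309, 0.187 and 0.595 FPKM in vehicle (3.02 ± 0.70, adjusted p = 0.0480). Combination 3 was the highest library, and the call was lost under 16 of 19 alternatives. Zbtb6, a zinc finger gene (chromosome 2, 37425500 to 37443171), had 11.1, 14.4 and 10.5 FPKM in the combination, against 2.06, 1.70 and 1.201 FPKM in vehicle (2.29 ± 0.28, adjusted p = 0.00463). Its call stood without any one library and was lost under 2 of 19 alternatives. Zbtb6 overlaps Zbtb26, which was at 0.07, and the split of fragments between them is uncertain. Mgst1, a membrane-bound glutathione transferase (chromosome 6, 138140316 to 138156755), had 6.29, 6.52 and 6.00 FPKM in the combination, against 0.400, 0.811 and 1.52 FPKM in vehicle (1.97 ± 0.46, adjusted p = 0.0495); brivanib tumours were at 12.7, 15.4 and 9.80 FPKM. The Mgst1 call was lost without any one of the 6 libraries. Among genes on no list and chosen after their values were seen, Apobec1, an RNA-editing deaminase, rose by 1.40 ± 0.15, Dram1, a p53-regulated autophagy gene, by 0.92 ± 0.13, and Abcb1b, a drug efflux pump, by 0.67 ± 0.13 (adjusted p = 0.00311, 0.0102 and 0.0234). The Dram1 call was lost without vehicle 3, and that of Abcb1b without any one library other than combination 4.

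On the lower side, Mest, an imprinted gene of embryonic mesoderm (chromosome 6, 30723547 to 30748465), had 1.26, 0.577 and 1.61 FPKM in combination 2, 3 and 4, against 6.997, 8.19 and 10.4 FPKM in vehicle 2, 3 and 5 (-2.16 ± 0.31, adjusted p = 0.0102). Prnd, which encodes the prion-like protein doppel (chromosome 2, 131950861 to 131956130), had 0, 0 and 0.172 FPKM in the combination, against 3.55, 3.603 and 5.71 FPKM in vehicle (-2.30 ± 0.41, adjusted p = 0.0218). In single-drug tumours, Mest was at 4.26, 8.18 and 7.01 FPKM in cisplatin and 8.07, 16.6 and 7.29 FPKM in brivanib, and Prnd at 2.74, 6.87 and 2.29 FPKM in cisplatin and 2.75, 6.97 and 1.39 FPKM in brivanib. Every single-drug library was above every combination library for both genes. Against brivanib both were lower in the combination, Mest at -2.38 (adjusted p = 0.00372) and Prnd at -1.98 (adjusted p = 0.0242), while against cisplatin, at -1.79 and -2.12, neither passed (adjusted p = 0.588 for both). Sprr1a, a cornified envelope protein that injured cells induce (chromosome 3, 92483952 to 92485895), had 1.02, 0.972 and 1.59 FPKM in the combination, against 6.85, 4.69 and 10.7 FPKM in vehicle (-1.89 ± 0.28, adjusted p = 0.0102). Mmp12, the elastase of macrophages (chromosome 9, 7344381 to 7369499), had 4.49, 4.03 and 5.08 FPKM in the combination, against 18.2, 16.8 and 19.2 FPKM in vehicle (-1.79 ± 0.37, adjusted p = 0.0324). Bcl6b, a transcriptional repressor found in endothelium (chromosome 11, 70224128 to 70229798), had 0.818, 0.323 and 0.553 FPKM in the combination, against 2.94, 3.01 and 3.77 FPKM in vehicle (-1.45 ± 0.29, adjusted p = 0.0289). The gene model Mir8098 was at 0.335, 0.318 and 0.405 FPKM in the combination, against 10.2, 15.1 and 14.8 FPKM in vehicle (-3.39 ± 0.49, adjusted p = 0.0102). It rests on 1, 1 and 1 fragments in combination 2, 3 and 4, against 33, 46 and 39 in vehicle, and lies inside the first exon of Wdfy2, so its level as a microRNA is uncertain. Lower calls chosen after their values were seen were Srrm2 and Ddx17, which take part in splicing, at -0.75 ± 0.14 and -0.75 ± 0.14, and the nuclear RNA Neat1 at -0.93 ± 0.16 (adjusted p = 0.0227, 0.0234 and 0.0211). Without vehicle 3 the calls of Mest, Prnd, Mmp12, Bcl6b, Mir8098, Srrm2, Ddx17 and Neat1 were lost; that of Sprr1a was not. Those of Mmp12 and Bcl6b were lost without any one of the 6 libraries, those of Prnd and Srrm2 without any one other than combination 4, and those of Ddx17 and Neat1 also without combination 2, combination 3 or vehicle 2.

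Set directly against cisplatin tumours, combination tumours differed in none of 14246 genes by the limma test (lowest adjusted p 0.588); 960 had an unadjusted p under 0.05, limma-voom on recovered fragments called 2 and limma without combination 3 called 2. Against brivanib 551 genes (3.87%) passed, 288 higher and 263 lower in the combination. That number was 61 without combination 3, 170 without combination 2 and 214 without brivanib 5, a library in which ribosomal-like features took 37.7% of fragments, against at most 0.656% in the other 11. Of 49 tested fibroblast and matrix genes, 24 were lower in the combination than in brivanib and none higher; of the 17 pericyte genes 8 were lower, and of 32 macrophage genes 6 were lower and 2 higher. For fibroblast and matrix genes in brivanib tumours, 24 of 49 were also higher than in vehicle, beside 243 of all 14246 genes. Their list median was 1.34 for brivanib over vehicle. The comparisons with vehicle share the vehicle libraries, so values are given side by side. Mitosis genes had a median of 0.53 for the combination, 0.48 for cisplatin and 0.23 for brivanib. Interferon response genes had 0.65, 0.17 and 0.24 in the same order, endothelial genes -0.39, -0.12 and 0.05, and cholesterol genes -0.76, -0.20 and -0.01. The interaction contrast, which asks whether the combination differs from the sum of the single-drug differences, passed in 20 genes, all with a negative term, and 1430 had an unadjusted p under 0.05. The count was 1 without vehicle 3, 7 without vehicle 2, 13 without combination 3 and 8 without brivanib 5. The largest term was that of Tnc, the matrix protein tenascin C, whose mean was 4.33 FPKM in the combination, 11.95 FPKM in cisplatin, 39.35 FPKM in brivanib and 4.08 FPKM in vehicle; it was chosen after its values were seen.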

How the data were processed

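Gene expression was measured by RNA sequencing of whole tumours. Per the series' design text, the libraries were read on a BGISEQ-500 and quantified with RSEM after alignment with Bowtie2 to mm10; the submitters' processing notes list HISAT, Bowtie2 2.2.5, Bowtie and RSEM 1.2.12, and also name mm9. The deposited FPKM values of 135276 transcripts were summed per gene into 53801 genes after 3 broken lines were dropped. Of the transcripts, 135047 are in GENCODE M21, 98.48% of them at identical coordinates. One of the sample columns (1 column) matched no label and was not used. Dividing the authors' FPKM by their smallest steps gave whole fragments for 100% of values up to 100 fragments (tolerance 0.01).

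Genes with a mean FPKM of at least 1 over 12 libraries were tested on log2(FPKM + 1) with limma 3.58.1 (R 4.3.3; trend, 1 mean per group, 8 residual degrees of freedom) and Benjamini-Hochberg adjustment over 14246 genes at 0.05. Fold changes on this scale understate the change of low genes; values after ± are SE. Intervals and floors (3 fragments per library) cover counting error only. An exact permutation test of 3 against 3 libraries cannot go below 0.1 and was not used.

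Genes were named by a rule: the 12 largest called changes in each direction, up to 4 genes of each of 33 lists, and a panel of 16; other genes carry a remark that they were chosen later, with values in view. The members and lists were chosen with earlier results of these data known, and 2 further lists were added after values were seen. Promoters are from RefSeq on GRCm38.p6. The 19 alternatives covered pseudocount, filter, scaling, libraries, covariates, the replicate block and limma-voom. Limma-voom scaled each library by its fragments over the tested genes, with ribosomal-like features kept and no further correction. In brivanib 5, where such features took 37.7% of fragments, other genes were thereby scaled down. The median over all genes for brivanib over vehicle was -0.30 in limma-voom, against -0.01 in the main test. The part of this library in the calls lost under limma-voom was not tested.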

Additional observations from a re-analysis of the deposited data

How the results depend on the processing

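The count of 333 genes between combination and vehicle became 125 with no filter on low values, 216 at equal totals, 30 with the adipocyte score as a covariate, 69 by limma-voom, 80 from the highest transcript of each gene, and 21 to 336 when 1 library was left out. Against cisplatin the count of 0 became 3 with no filter, 2 by limma-voom, 3 from the highest transcript, and 0 to 2 with 1 library left out. Against brivanib 551 became 317 at a mean FPKM of at least 5, 259 from the highest transcript, and 61 to 590 with 1 library left out. The interaction count of 20 became 0 at a pseudocount of 0.1, 52 at 5, 2 at a mean FPKM of at least 5, 13 at equal totals, 1 and 10 when the skeletal muscle or the adipocyte score was a covariate, 5 by limma-voom, 10 from the highest transcript, and 1 to 27 with 1 library left out. With the replicate block the 4 counts were 35, 0, 168 and 1. Combination and vehicle share only the numbers 2 and 3. Deviations from the group means had correlations of -0.01 and 0.01 in these pairs, against -0.08 to 0.09 for libraries of unlike numbers. So few pairs cannot show whether the numbers pair the tumours. Of 103 named genes called in the combination, 102 kept their direction under every alternative in which they were tested (88 of the 103 at a mean FPKM of at least 5); Hnrnph3, an RNA-binding protein gene at -0.73, was at 0.031 from its highest transcript. Their calls stood in 96 at a pseudocount of 5 and 97 under median-of-ratios scaling, but in 18 with the adipocyte score and 15 without vehicle 3; the cause was not tested. The other choices moved none of these 4 counts by over 1.5 times. Counts within the gene lists moved more, among them: replication calls (8) became 0, repair calls (4) 0, p53 calls (3) 0, glucocorticoid calls (6) 2 and fatty acid calls (7) 3 by limma-voom, and with no filter glucocorticoid calls became 0 and fatty acid calls 2. From the highest transcript of each gene, replication calls became 1, glucocorticoid calls 0 and acute phase calls 1.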
